A study of Arabidopsis thaliana with 16 samples.

Results

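Wild-type H2A.Z sites at the 3′ ends of genes are described here. A common wild-type site is a summit of H2A.Z over H3 in WT replicate 1 that has a summit of WT replicate 2 within 200 bp. A summit is the single base at which the peak caller found the highest enrichment within a peak. A common site was called a 3′ site when its replicate 1 position lay in the last 500 bp before the transcription end site (TES) of a protein-coding gene of 1500 bp or more, and not within 500 bp downstream of the transcription start site (TSS) of any protein-coding gene. There were 1358 such sites among 21659 common sites, or 6.27%. All of the 1358 sites were used, and no filter on low values was applied to them. The sites were thus chosen by the summit calls of both WT H2A.Z over H3 lists and by the annotation, and wild-type presence and score are given as a description only.

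Shoots were collected 13 days after germination from plants of 3 mutant genotypes, the single mutants *mbd9-3* and *arp6-1* and their double mutant, and from wild-type Columbia-0 (WT) plants, which had grown on plates with sucrose under long days. Each genotype had 2 replicates grown on separate plates, and each replicate was divided between an H2A.Z and an H3 immunoprecipitation. The H2A.Z antibodies were raised against HTA11 and HTA9, 2 of the *Arabidopsis* H2A.Z proteins. *mbd9-3* and *arp6-1* are each a single mutant allele, *arp6-1 mbd9-3* carries both, and whole shoots mix many cell types, so that a summit is an average over them. Summit lists hold no transcript levels, so the alleles and the tissue were not checked here.

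H2A.Z is a variant of histone H2A that the SWR1 remodeling complex places into nucleosomes in exchange for H2A. ARP6 is a subunit of SWR1, and MBD9 is a methyl-CpG-binding domain protein that associates with the complex. In plants H2A.Z is best known at the first nucleosome after the TSS, and it also extends over the bodies of genes that respond to the environment and are little expressed. The last stretch of a gene is where its transcript is cleaved and polyadenylated, and antisense transcripts can start there.

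The positions are shown first for the host genes on which the results below turn, each on the coding strand of the host gene and with 100 bases on each side of the WT replicate 1 summit. They are *AT5G58400*, which had the highest lower score of both WT replicates, *RDM1*, whose site had summits in every mutant library, *AT5G13380*, which led the losses in *mbd9-3*, *CHR34*, which led the losses in *arp6-1 mbd9-3* compared with *arp6-1*, and *MEB1*, which had no other common site. All 5 windows lie in coding exons. Coordinates are those of TAIR10.1, and the capitals mark the 21 bases centered on the summit.
*AT5G58400*, chr5:23605583-23605783, minus strand: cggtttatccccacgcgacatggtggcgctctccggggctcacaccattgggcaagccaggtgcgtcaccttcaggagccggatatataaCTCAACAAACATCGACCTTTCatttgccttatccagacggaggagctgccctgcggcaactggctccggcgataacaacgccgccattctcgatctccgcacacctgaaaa
*RDM1*, chr3:8020031-8020231, plus strand: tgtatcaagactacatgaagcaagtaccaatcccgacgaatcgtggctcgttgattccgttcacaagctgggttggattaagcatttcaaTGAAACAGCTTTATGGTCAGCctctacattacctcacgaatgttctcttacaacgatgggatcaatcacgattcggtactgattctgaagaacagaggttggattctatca
*AT5G13380*, chr5:4292137-4292337, plus strand: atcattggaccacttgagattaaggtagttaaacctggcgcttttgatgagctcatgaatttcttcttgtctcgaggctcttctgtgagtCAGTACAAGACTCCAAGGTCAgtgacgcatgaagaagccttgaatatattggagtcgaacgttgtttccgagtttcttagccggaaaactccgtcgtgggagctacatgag
*CHR34*, chr2:9179770-9179970, minus strand: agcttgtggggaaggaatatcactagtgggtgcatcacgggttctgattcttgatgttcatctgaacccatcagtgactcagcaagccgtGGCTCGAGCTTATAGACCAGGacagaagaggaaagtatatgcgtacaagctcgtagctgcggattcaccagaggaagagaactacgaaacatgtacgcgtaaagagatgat
*MEB1*, chr4:13875955-13876155, plus strand: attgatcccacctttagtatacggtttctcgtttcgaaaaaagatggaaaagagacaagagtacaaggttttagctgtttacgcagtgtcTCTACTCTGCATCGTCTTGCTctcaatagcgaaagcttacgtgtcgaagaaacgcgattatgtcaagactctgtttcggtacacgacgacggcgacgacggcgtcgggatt

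The 3′ sites lay toward the gene body and thinned out toward the TES. Their median distance from the TES was 373.5 bp. Of the 1358 sites, 529 (39.0%) lay more than 400 bp before the TES, 466 lay 300 to 400 bp before it, 229 lay 200 to 300 bp before it, 102 lay 100 to 200 bp before it and only 32 (2.36%) lay in the last 100 bp. Around the ends of all 19120 protein-coding genes of 1500 bp or more, pairs of a common site and a gene numbered 548 in the bin 400 to 500 bp before the TES, 40 in the last 100 bp, 36 in the first 100 bp after the TES and 558 in the bin 400 to 500 bp after it. The lowest counts thus stood on both sides of the TES itself, and most of the 3′ sites stood on the inner slope of that dip.

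**Figure D1:**
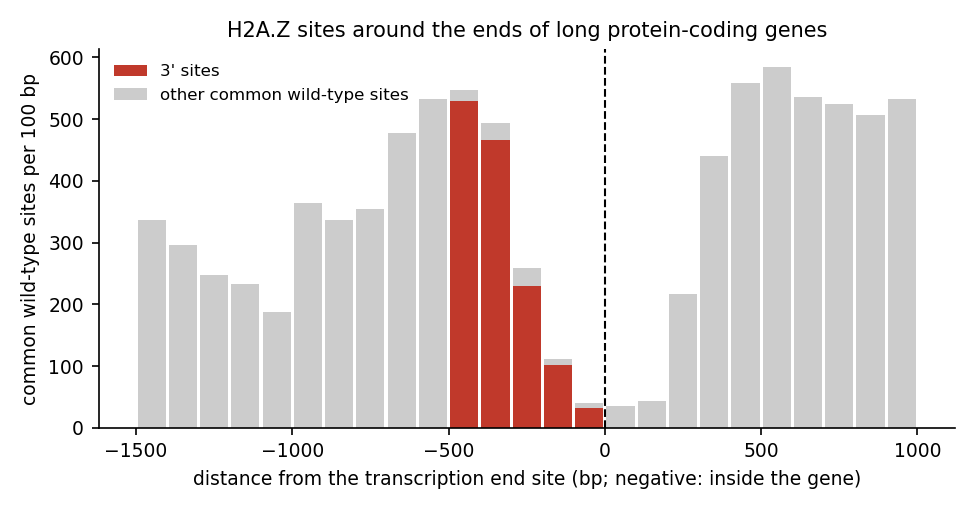
Number of common wild-type H2A.Z sites per 100 bp bin by distance from the TES of protein-coding genes of 1500 bp or more, a site being counted once for each such gene within reach. Red bars are the 3′ sites and gray bars are other common sites, and the counts dip to 40 and 36 in the bins on either side of the TES, against 548 in the bin 400 to 500 bp before it.

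The rule did not use exons or codons, and by the annotation 1200 of the 3′ sites (88.4%) lay in a coding exon, 94 (6.92%) in a 3′ UTR and 62 (4.57%) in an intron. The 3′ UTR made up 52.9% of the positions in the last 500 bp of all genes of 1500 bp or more, and coding exons made up 37.4%. This comparison does not allow for the distance from the TES. At positions drawn at the same distances in genes without a 3′ site, 59.9% were in coding exons, 21.9% in 3′ UTRs and 16.8% in introns. A high share in coding exons was not particular to 3′ sites, since 88.8% of gene-body sites and 75.2% of 5′ sites lay in them. The stop codon lay downstream of 1256 sites (92.5%), by a median of 186 bp over all sites. The host genes had a median of 183 bp between stop codon and TES, against 260 bp in all genes of 1500 bp or more.

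The GC content of the 201 bp window around a 3′ site had a median of 44.8%, which was the same as for 5′ sites (44.8%) and close to gene-body sites (45.3%), while the same distances in genes without a 3′ site had 40.3%. Within coding exons alone the medians were 45.3% at 3′ sites and 42.8% at the same distances without a site. The letters AATAAA, the canonical polyadenylation signal of animals, were found on the coding strand in 8.84% of the windows of 3′ sites, 10.5% of those of 5′ sites, 8.92% of those of gene-body sites and 18.9% of those at the same distances without a site. TATAAA, the core of the TATA box, was found in 8.25%, 7.11%, 7.89% and 14.6% of the same windows. These are matches of letters in a window and not sites, and the part of base composition in their shares was not tested.

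The 3′ sites fell in 1323 genes, or 6.92% of the genes of 1500 bp or more, and 1290 of these genes held 1 site, 31 held 2 sites and 2 held more. The sites were spread over all nuclear chromosomes, with 351, 194, 286, 204 and 323 on chromosomes 1 to 5. Most host genes held H2A.Z elsewhere as well. Of the 1358 sites, 726 (53.5%) had another common site within 500 bp of the TSS of their host, 716 (52.7%) had a gene-body site in their host, and 268 (19.7%) were the only common site of their host. For 921 of 1322 host genes with a next protein-coding gene (69.7%) that gene ran on the same strand, against 52.6% of all genes of 1500 bp or more, 53.2% of the hosts of 5′ sites and 57.2% of the hosts of gene-body sites. The next gene was also farther away, with a median of 672 bp from TES to that gene for the hosts of 3′ sites, against 299.5 bp for all such genes. The rule excluded sites just downstream of a protein-coding TSS, and the part of this exclusion in these shares and distances was not tested. A further 56 sites lay under another annotated gene, 24 of them under a long non-coding or antisense RNA gene.

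Wild-type scores of the 3′ sites, the deposited −log10 of the q value, were lower than those of 5′ sites. The lower score of both replicates ran from 2.001 to 19.9 with a median of 4.64 at 3′ sites, against medians of 5.83 at 5′ sites, 4.68 at gene-body sites and 5.27 at all common sites. In quintiles of that score over all common sites, 25.2% of the 3′ sites were in the lowest quintile and 13.2% in the highest. The summits of both replicates were a median of 38 bp apart. Just inside the limit of 500 bp, at 499 and 500 bp, 20 sites had a median replicate 1 score of 8.53, and just outside it, at 501 and 502 bp, 18 sites had 5.78. At the joining limit of 200 bp, 3 sites with summits 199 or 200 bp apart had a median replicate 1 score of 4.80, and 9 summits that missed it at 201 to 205 bp had 4.44.

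Whether H2A.Z remained at 3′ sites without MBD9, ARP6 or both was read from the mutant lists of H2A.Z over H3, which come from other libraries than those that chose the sites. In *mbd9-3*, 45.0% ± 4.69 (SD, n = 2) of the 3′ sites had a summit within 200 bp, in *arp6-1* 16.5% ± 10.5 (SD, n = 2), and in *arp6-1 mbd9-3* 3.61% ± 0.208 (SD, n = 2). No test between genotypes was made, because 2 libraries against 2 cannot go below an exact p of 0.33. The lists differ in length, since those of *mbd9-3* hold 15024 and 17839 summits, those of *arp6-1* hold 3827 and 7506, those of the double mutant hold 1243 and 1265 and those of WT hold 29980 and 26536. A summit that was not called is not shown to be absent, since the lists start at a score of 2 and the depth behind them is unknown.

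By library, 566 of the 3′ sites had a summit in *mbd9-3* replicate 1 (41.7%, exact Clopper-Pearson 95% interval 39.0 to 44.4%) and 656 in replicate 2 (48.3%, 45.6 to 51.0%), against 52.6% and 59.1% of all common sites. In *arp6-1* the numbers were 124 in replicate 1 (9.13%, 7.65 to 10.8%) and 325 in replicate 2 (23.9%, 21.7 to 26.3%), against 14.7% and 26.7% of all common sites. In *arp6-1 mbd9-3* they were 47 (3.46%, 2.55 to 4.58%) and 51 (3.76%, 2.81 to 4.91%), against 4.36% and 4.48%. The 3′ sites were below the share of all common sites in each of the 6 libraries. The *arp6-1* libraries stood farther apart than those of the other mutants, so each *arp6-1* mean rests on 2 unlike lists. These intervals cover counting error over sites only, and sites are not independent replicates of a genotype.

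**Figure D2:**
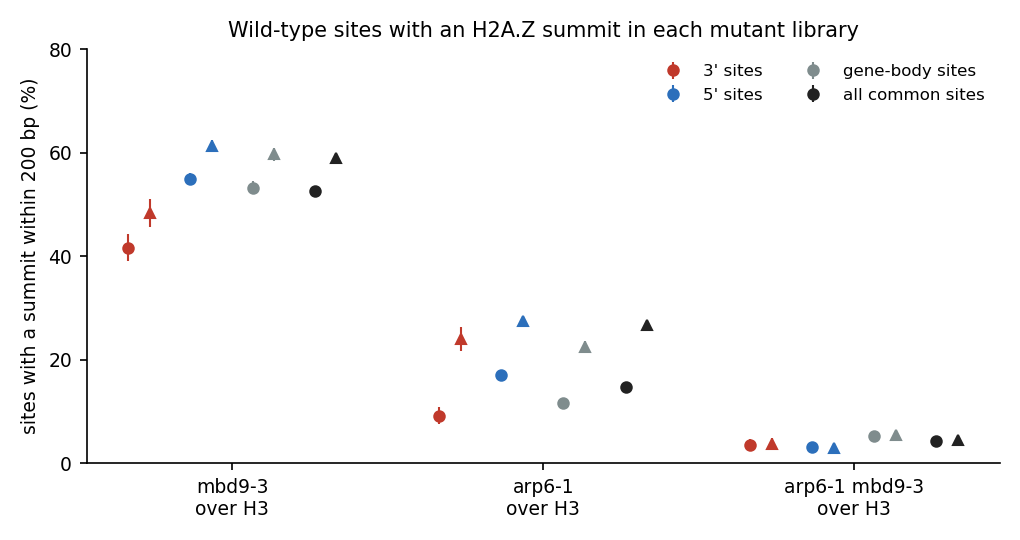
Share of sites (percent) with an H2A.Z summit within 200 bp in each mutant library, for 3′ sites, 5′ sites, gene-body sites and all common sites, with circles for replicate 1, triangles for replicate 2 and bars for exact Clopper-Pearson 95% intervals. The 3′ sites had 41.7% and 48.3% in *mbd9-3*, below the other sets in the same library, and all sets were near 3 to 5% in *arp6-1 mbd9-3*.

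Part of the gap to 5′ sites went with the wild-type score. The 3′ sites were therefore compared with other sets after weighting each comparison set to the score quintiles of the 3′ sites. The 5′ sites were 7359 common sites within 500 bp downstream of the TSS of a gene of 1500 bp or more. Gene-body sites were 6086 sites between these windows. In *mbd9-3* the share of 3′ sites with a summit minus that of 5′ sites was −4.46 and −4.88 percentage points in replicates 1 and 2, and minus that of gene-body sites it was −11.0 and −10.9 points. Before weighting, these differences were −13.3 and −13.0 points from 5′ sites and −11.6 and −11.4 points from gene-body sites. Weighting thus changed the difference from gene-body sites little. In *arp6-1* the replicates went in opposite directions, with −2.50 and 3.68 points from 5′ sites and −2.01 and 2.06 points from gene-body sites. In *arp6-1 mbd9-3* the differences were 1.31 and 1.72 points from 5′ sites and −1.57 and −1.44 points from gene-body sites.

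Over all 6 mutant libraries the standardized difference from 5′ sites was −0.86 ± 3.57 points (SD, n = 6), with 3 libraries below 0 and 3 above it (exact two-sided sign-flip permutation test, p = 0.594, adjusted p = 0.594 over 2 differences). The difference from gene-body sites was −4.13 ± 5.45 points (SD, n = 6), below 0 in 5 of 6 libraries (same exact test, p = 0.156, adjusted p = 0.312). The smallest p this test allows is 0.031, and after adjustment 1 of 2 differences alone cannot go below 0.0625. Neither difference passed the threshold over all mutants, which does not show that the sets are alike. The 6 libraries are 2 of each of 3 mutant genotypes, all read at the same sites, so they are not 6 independent units. Their SD thus holds the spread between genotypes as well. In *arp6-1 mbd9-3* the weighted shares of 5′ sites were only 2.15% and 2.04%, so differences there could not fall far below 0. Within *mbd9-3* both differences were larger than the spread between its 2 libraries (SD of 0.297 and 0.0812 points), and this was not tested further with n = 2. Without weighting by score the difference from 5′ sites was −6.08 ± 6.33 points (SD, n = 6, exact sign-flip permutation test, p = 0.125, adjusted p = 0.125). That from gene-body sites was then −4.58 ± 5.53 points (SD, n = 6, exact sign-flip permutation test, p = 0.0625, adjusted p = 0.125).

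**Figure D3:**
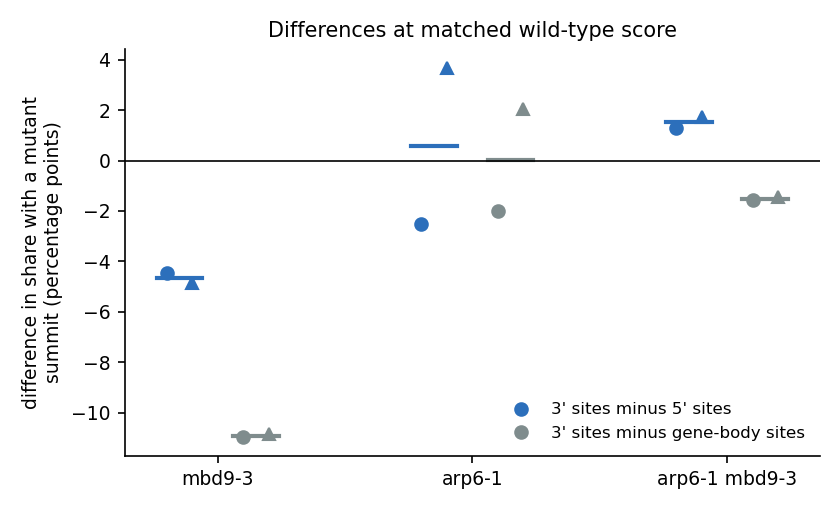
Difference in the share of sites with a mutant summit (percentage points), 3′ sites minus 5′ sites (blue) and 3′ sites minus gene-body sites (gray), with the comparison set weighted to the wild-type score quintiles of the 3′ sites. Circles are replicate 1, triangles are replicate 2 and lines are their means, which for *mbd9-3* are −4.67 and −10.9 points.

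The share of 3′ sites with a summit in *mbd9-3* was higher at higher wild-type score, which is why the score was held constant. In the lowest quintile, with lower scores of 2.001 to 3.47, 27.2% and 30.1% of 342 sites had a summit in replicates 1 and 2. In the highest quintile, with scores of 8.52 and above, 76.5% and 83.8% of 179 sites had one, against 89.3% and 91.4% of 5′ sites and 87.2% and 90.2% of gene-body sites in that quintile. In *arp6-1* the highest quintile had 28.5% and 59.2% of 3′ sites with a summit, against 44.7% and 61.3% of 5′ sites and 35.3% and 56.6% of gene-body sites. In the 4 lower quintiles of *arp6-1* replicate 2 the 3′ sites were above 5′ sites, with 13.5% against 7.77% in the lowest quintile. In *arp6-1 mbd9-3* the highest quintile had 6.70% and 5.03% of 3′ sites with a summit. The shares there were 8.14% and 7.64% of 5′ sites and 13.7% and 14.6% of gene-body sites.

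**Figure D4:**
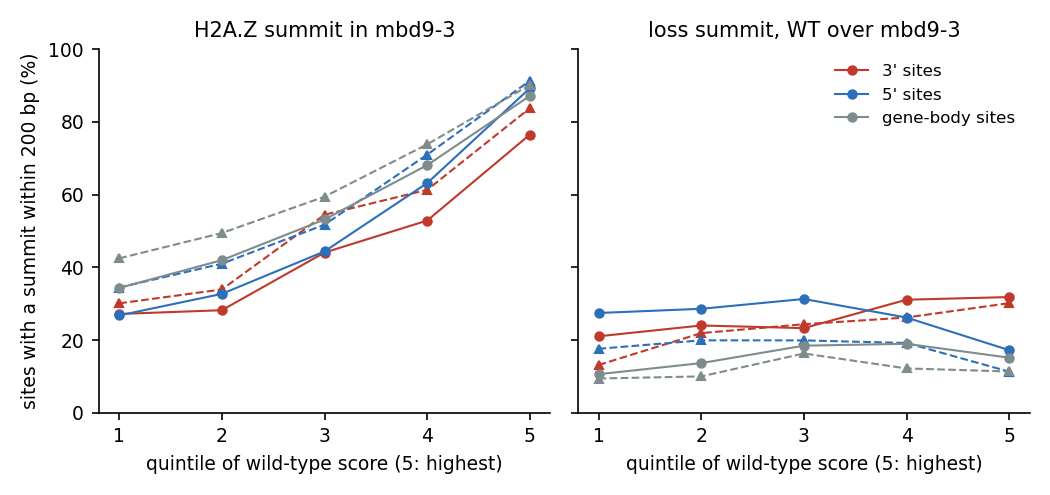
Share of sites (percent) with an H2A.Z summit in *mbd9-3* (left) and with a loss summit of WT over *mbd9-3* (right), by quintile of the lower wild-type score of all common sites. Circles with solid lines are replicate 1 and triangles with dashed lines are replicate 2. In the highest quintile 76.5% and 83.8% of 3′ sites had a mutant summit and 31.8% and 30.2% had a loss summit.

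Taking both libraries of a mutant together, 456 of the 3′ sites (33.6%) had a summit in both *mbd9-3* libraries, 310 in a single library and 592 (43.6%) in neither, against 45.3% of all common sites with a summit in both. In *arp6-1* 96 sites (7.07%) had a summit in both libraries, against 11.9% of all common sites, and in *arp6-1 mbd9-3* 15 sites (1.10%) did, against 1.56%. Over the 6 lists, 527 of the 3′ sites (38.8%) had no mutant summit at all, against 30.7% of all common sites. A summit in every list was found at 5 sites (0.368%), against 1.11% of all common sites. Sites with a summit in both *mbd9-3* libraries and in no *arp6-1* library numbered 235 (17.3%), against 22.7% of all common sites. The opposite pattern was found at 5 sites (0.368%), against 0.291% of all common sites.

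Where a mutant summit was found it lay close to the wild-type position. The median distance from the WT replicate 1 summit was 45 and 39.5 bp in *mbd9-3*, 41.5 and 40 bp in *arp6-1* and 45 and 43 bp in *arp6-1 mbd9-3*, against 38 bp for WT replicate 2. Signed along the gene, the median offset toward the TES was −7.5 and −14 bp in *mbd9-3*, and in *arp6-1 mbd9-3* it was −31 and −29 bp over only 47 and 51 sites. The 3′ sites with a summit ranked near the middle of each mutant list. Their median percentiles in *mbd9-3* were 49.3 and 48.6, against 63.8 and 65.7 for 5′ sites and 52.7 and 55.5 for gene-body sites. In *arp6-1 mbd9-3* they were 53.6 and 59.1, against 55.6 and 51.1 for 5′ sites, so the order there differed between replicates.

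The differential lists give the summits at which H2A.Z was higher in WT than in a mutant of the same replicate number, here called loss summits. They share the WT H2A.Z libraries with the rule, so that they are a description and no test. Against *mbd9-3*, 344 of the 3′ sites (25.3%) in replicate 1 and 299 (22.0%) in replicate 2 had a loss summit within 200 bp, against 22.0% and 17.2% of all common sites, 25.7% and 17.3% of 5′ sites and 14.9% and 11.6% of gene-body sites. Against *arp6-1*, 925 (68.1%) and 745 (54.9%) had a loss summit, against 75.1% and 63.5% of all common sites and 70.8% and 57.2% of gene-body sites. Against *arp6-1 mbd9-3*, 954 (70.3%) and 882 (64.9%) had one, against 81.3% and 78.7% of all common sites, 90.7% and 90.3% of 5′ sites and 72.7% and 67.9% of gene-body sites. The 3′ sites were thus above all common sites in the share with a loss against *mbd9-3*, in both replicates, and below them against both mutants that lack ARP6, where gene-body sites were low as well and within 3 points of the 3′ sites. The lists against different mutants share the same WT libraries, and how the libraries were scaled to each other is not given in the sources used here.

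**Figure D5:**
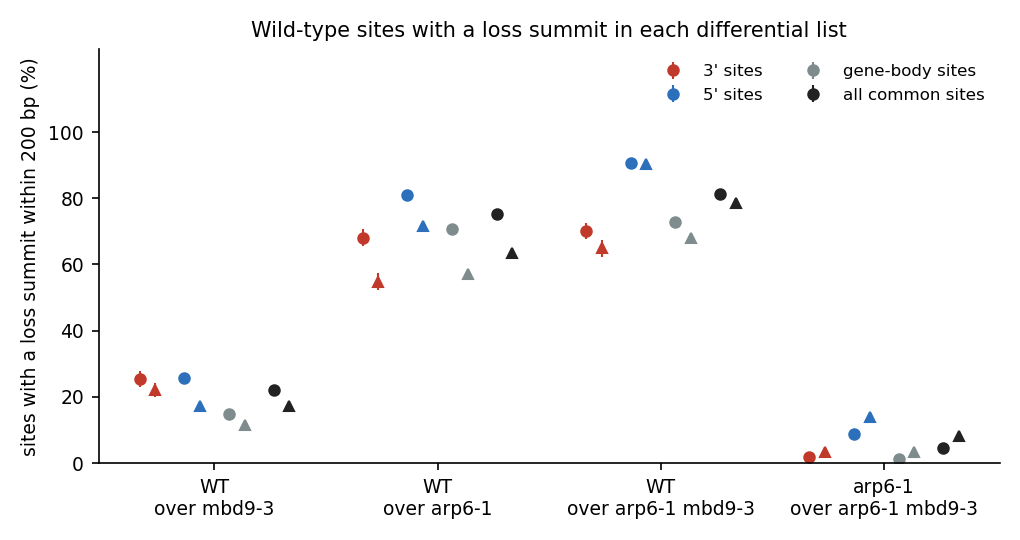
Share of sites (percent) with a loss summit within 200 bp in each differential list, for 3′ sites, 5′ sites, gene-body sites and all common sites, with circles for replicate 1, triangles for replicate 2 and bars for exact Clopper-Pearson 95% intervals. Against *arp6-1 mbd9-3* the 3′ sites had 70.3% and 64.9%, below 90.7% and 90.3% of the 5′ sites and near 72.7% and 67.9% of the gene-body sites.

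To keep the WT library that chose the sites apart from the one that showed the loss, sites were also taken from 1 WT replicate alone and the loss from the lists of the other replicate, a comparison chosen after seeing the data. With sites of replicate 1 and losses of replicate 2, 16.8% of 2040 summits in the 3′ window had a loss against *mbd9-3*, against 15.6% of 5′ and 9.01% of gene-body summits. With sites of replicate 2 and losses of replicate 1 it was 20.4% of 1824 summits, against 24.4% of 5′ and 12.2% of gene-body summits. The 3′ summits stayed above gene-body summits both ways, while their order with 5′ summits differed between the ways. Against *arp6-1 mbd9-3* the shares were 49.7% and 56.4% for the 3′ window, against 81.4% and 85.4% for 5′ summits and 52.6% and 59.6% for gene-body summits.

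Presence and loss were not complements of each other. In *mbd9-3*, 390 of the 3′ sites (28.7%) had a summit in both mutant libraries and no loss summit, against 40.3% of all common sites. A further 136 (10.01%) had a loss summit in both lists and no mutant summit, against 8.22% of all common sites, and 288 (21.2%) had none of the 4 summits, against 15.7%. In *arp6-1 mbd9-3*, 711 sites (52.4%) had both losses and no mutant summit, against 66.5% of all common sites and 81.9% of 5′ sites. Gene-body sites, with 54.3%, were near the 3′ sites in this. None of the 4 summits was found at 230 of the 3′ sites (16.9%), against 10.2% of all common sites. Loss summits in both lists stood at 611 sites (45.0%) against *arp6-1* and at 741 (54.6%) against *arp6-1 mbd9-3*. The shares were 55.9% and 71.3% of all common sites and 49.5% and 59.0% of gene-body sites. The 3′ sites were therefore more often below both call limits than the average site, and gene-body sites were nearly alike in this, with none of the 4 summits at 18.9% for *mbd9-3* and 16.4% for *arp6-1 mbd9-3*. In the lists of *arp6-1* over *arp6-1 mbd9-3*, which use no WT library, 25 of the 3′ sites (1.84%) in replicate 1 and 47 (3.46%) in replicate 2 had a loss summit, against 4.69% and 8.26% of all common sites and 8.74% and 14.01% of 5′ sites. Here the shares of gene-body sites, 1.31% and 3.24%, were near those of the 3′ sites.

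The summits of each mutant list itself were also placed by position, without the WT sites. Summits in the 3′ window made up 5.21% and 5.54% of the *mbd9-3* lists, 4.47% and 6.501% of the *arp6-1* lists and 4.51% and 6.01% of the *arp6-1 mbd9-3* lists, against 6.805% and 6.87% of the WT lists. All mutant lists thus had a smaller share in the 3′ window than both WT lists, which was not tested. Of the differential lists, WT over *mbd9-3* had the highest shares with 6.81% and 8.17%, and *arp6-1* over *arp6-1 mbd9-3* the lowest with 2.64% and 3.44%.

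Among the 3′ sites themselves, the position within the window went with the mutant lists. Sites 400 to 500 bp before the TES had a summit in *mbd9-3* in 45.6% and 52.7% of cases, those 300 to 400 bp before it in 40.6% and 48.5%, those 200 to 300 bp before it in 37.6% and 40.2%, those 100 to 200 bp before it in 39.2% and 46.1%, and the 32 sites in the last 100 bp in 31.2% and 37.5%. The shares were highest in the bin farthest from the TES and lowest in the bin nearest to it, without a steady order between them. Median wild-type scores in the same bins were 4.83, 4.72, 4.39, 4.52 and 3.80, so the score moved with the share, and its part was not tested. The 268 sites that were the only common site of their host gene had a summit in 34.3% and 43.7% of cases in *mbd9-3*, and the 190 sites with at least 3 other sites in the host had one in 52.1% and 60.0%. Loss summits against *mbd9-3* stood at 31.0% and 25.0% of the sites alone in their host and at 18.4% and 16.3% of those with at least 3 others. The median wild-type scores of the same 2 sets were 4.49 and 5.07.

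The start of a following gene went with the shares as well. The 133 sites within 500 bp upstream of a protein-coding TSS had a summit in *mbd9-3* in 51.1% and 57.9% of cases, against 40.7% and 47.3% of the other 1225 sites, with median wild-type scores of 5.27 and 4.55. The 94 sites in a 3′ UTR had a loss summit against *arp6-1* in 56.4% and 31.9% of cases, against 69.5% and 56.7% of the 1200 sites in coding exons, with median wild-type scores of 4.46 and 4.69. Against *arp6-1 mbd9-3* the 3′ UTR sites had a loss summit in 72.3% and 63.8% of cases, against 70.8% and 65.2% in coding exons. These subsets were described and not tested.

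The strongest wild-type site was in *AT5G58400*, which encodes a peroxidase, of a family that oxidizes cell wall and other substrates with hydrogen peroxide. Its site, 494 bp before the TES, scored 19.9 and 29.5 in WT replicates 1 and 2. It had summits in all 6 mutant lists, where the *mbd9-3* scores were 14.1 and 22.3, the *arp6-1* scores 6.03 and 18.2 and the double mutant scores 4.79 and 3.83. It had no loss summit against *mbd9-3*, but did against *arp6-1* and *arp6-1 mbd9-3* in both replicates. Scores depend on the depth of each list and are not compared across genotypes.

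The next sites by wild-type score behaved unlike each other in the mutants. *IQD25*, a member of a family of calmodulin-binding proteins, scored 23.9 and 19.4 in WT and had summits in both *mbd9-3* libraries (17.97 and 18.7) and both *arp6-1* libraries (5.70 and 17.8), but in neither *arp6-1 mbd9-3* library. *DRM1*, a homologue of the de novo DNA methyltransferases of plants, scored 18.5 and 19.4 in WT at 192 bp before the TES, with 5.27 and 8.77 in *mbd9-3*, 2.99 in *arp6-1* replicate 2 only and none in *arp6-1 mbd9-3*. *TRM24*, at 17.6 and 22.1 in WT, had 3.90 and 5.24 in *mbd9-3* and loss summits against *mbd9-3* of 9.33 and 5.94, so that here presence and loss were called together.

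Summits in all 6 mutant lists were found at *AT5G58400*, *HDG8*, *RDM1*, *GH3.9* and *TAR1*. With summits within 100 bp, *HDG8* and *RDM1* had them in all 6 lists, while *AT5G58400* had them in 4 lists and *GH3.9* and *TAR1* in 5 lists each. *RDM1* encodes a component of RNA-directed DNA methylation, the plant pathway in which small RNAs guide DNA methyltransferases. Its site lay 377 bp before the TES and 243 bp before the stop codon and had moderate scores of 7.03 and 9.91 in WT. In the mutants it scored 20.3 and 21.3 (*mbd9-3*), 57.1 and 20.3 (*arp6-1*) and 37.4 and 66.2 (*arp6-1 mbd9-3*). In *arp6-1* replicate 1 only 1 of 3827 summits scored higher, and in each *arp6-1 mbd9-3* list only 1 of 1243 and 1 of 1265 did. In *arp6-1* replicate 2, 114 of 7506 summits scored higher, and in *mbd9-3* 494 of 15024 and 750 of 17839 did. In WT replicates 1 and 2, 12282 of 29980 and 3894 of 26536 summits scored higher. The lists differ in length and in the sites they hold, so these ranks place the site within each list and do not measure a change between genotypes. It was the only one of the 5 sites without a loss summit against any mutant.

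Of the other sites in all mutant lists, *HDG8*, a homeodomain transcription factor gene of the GLABRA2 family, scored 11.96 and 12.4 in WT and 4.72 and 6.71 in *arp6-1 mbd9-3*. *GH3.9*, of the family that conjugates auxin to amino acids, scored 5.62 and 10.9 in WT and 4.42 and 5.003 in *arp6-1 mbd9-3*, and it was the only common site of its gene. *TAR1*, a relative of the tryptophan aminotransferase of auxin synthesis, scored 14.1 in WT replicate 1 and 3.69 in replicate 2, and 2.63 and 3.69 in *arp6-1 mbd9-3*. All of these except *RDM1* had at least 1 loss summit against *arp6-1 mbd9-3*.

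Loss summits in both lists of WT over *mbd9-3* were found at 181 of the 3′ sites (13.3%), against 10.7% of all common sites. The highest lower score was at *AT5G13380*, annotated in the GH3 family of auxin-responsive genes, with loss scores of 13.4 and 12.6, WT scores of 12.3 and 10.03 and no summit in either *mbd9-3* library. *IRT1*, the main iron uptake transporter of roots, had loss scores of 11.8 and 13.5 against *mbd9-3*, WT scores of 10.9 and 13.7 and no summit in any mutant list. The peroxidase gene *AT2G37130* had loss scores of 11.9 and 17.9 and likewise no mutant summit. *JRG21*, a jasmonate-regulated gene, had 9.95 and 11.1 and a summit in *arp6-1* replicate 2 alone. *CYP86A1*, a fatty acid hydroxylase of suberin synthesis, had 11.8 and 11.8, yet kept summits of 5.95 and 2.82 in *mbd9-3*, so that a loss summit and a mutant summit stood at 1 site. These sites were picked by lists that use the *mbd9-3* H2A.Z libraries, so a missing *mbd9-3* summit follows in part from that choice.

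Loss summits in both lists of *arp6-1* over *arp6-1 mbd9-3* were found at 14 of the 3′ sites (1.03%), against 3.48% of all common sites. *CHR34*, annotated as a chromatin remodeling protein, had 13.99 and 11.6 there, with scores of 18.5 and 19.3 in *arp6-1*, none in *arp6-1 mbd9-3* and 14.2 and 37.8 in *mbd9-3*. *AT2G41810*, of unknown function, had 7.78 and 12.5. *MEB1*, annotated in the vacuolar iron transporter family, had 7.54 and 9.80, with 7.38 and 12.8 in *arp6-1* and 12.4 and 15.1 in *mbd9-3*. All 3 sites had summits in both libraries of both single mutants and in no library of the double mutant. They were picked by lists made from the same *arp6-1* and *arp6-1 mbd9-3* H2A.Z libraries. Presence in *arp6-1* and absence in the double mutant therefore follow in part from that choice.

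Sites that were alone in their host gene were led by *MEB1* (15.8 and 15.1 in WT), *PME38*, a pectin methylesterase of the cell wall (16.4 and 14.8), and *DRP4C*, a dynamin-related protein (19.4 and 14.6). *PME38* had summits of 3.89 and 4.03 in *mbd9-3* and loss scores of 4.55 and 7.55 against it. *DRP4C* had 6.995 and 6.91 in *mbd9-3* and loss scores of 7.86 and 4.86. Neither had a summit in *arp6-1 mbd9-3*.

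By words in their annotated product, the host genes were placed in 12 groups, described by counts. Cytochrome P450 genes made up 38 of 1323 hosts (2.87%), against 1.66% of the 9966 genes of 1500 bp or more with any common site and 1.24% of all 19120 such genes. Transporters made up 48 hosts (3.63%, against 2.73% and 2.27%), and glycosyltransferases and glycosyl hydrolases 34 (2.57%, against 1.87% and 1.34%). Genes of the ubiquitin, F-box and RING group made up 63 hosts (4.76%, against 3.63% and 4.15%). Disease resistance genes made up 19 hosts (1.44%, against 0.732% and 0.853%). A lower share than among genes with any site was found for pentatricopeptide and tetratricopeptide repeat proteins, with 16 hosts (1.21%, against 2.98% and 2.78%). Ribosomal proteins had only 3 hosts (0.227%, against 0.321% and 1.00%), too few to set them apart from genes with any site. Protein kinases with 64 hosts (4.84%, against 4.51% and 4.05%), receptor kinases with 11 (0.831%, against 0.973% and 0.743%), transcription factors with 17 (1.28%, against 1.28% and 1.496%), chaperones with 9 (0.680%, against 0.773% and 0.8996%) and chromatin proteins with 6 (0.454%, against 0.522% and 0.528%) stood near the share among genes with any site.

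In *mbd9-3*, 7 of the 42 sites in cytochrome P450 genes had summits in both libraries and 7 had loss summits in both lists, against 456 and 181 of all 1358 sites. Of the 50 sites in transporter genes 15 had both summits and 14 both losses. Of the 65 sites in genes of the ubiquitin, F-box and RING group 22 had both summits and 7 both losses, and of the 20 in disease resistance genes 6 and 2. Of the 16 sites in the repeat protein group only 1 had both summits. The leading site of each group was *CYP703A2*, a hydroxylase of pollen wall synthesis, in the P450 group (11.2 and 15.6 in WT, with a summit in *mbd9-3* replicate 1 alone), *AT1G63870* among disease resistance genes (12.9 and 11.9), *WNK7* among protein kinases (21.2 and 14.7), *LECRKA4.2* among receptor kinases (7.47 and 9.85) and *AT-HSFA7B*, a heat stress transcription factor (20.9 and 14.9). The others were *AT3G58950*, an F-box gene (15.5 and 11.3), *AT4G16260* among glycosyl hydrolases (13.4 and 24.5), *AT5G66631* among repeat proteins (19.5 and 8.63), *AT1G59725* among chaperones (11.7 and 7.52) and the mitochondrial ribosomal protein gene *AT5G14290* (6.31 and 5.89), with *CHR34* and *MEB1* leading the chromatin and transporter groups. *AT5G14290* had no summit in any mutant list and no loss summit in any differential list.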

How the data were processed

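H2A.Z and H3 ChIP-seq libraries (8 each) of 4 genotypes were used, with 2 replicates per genotype and antibody. The authors aligned reads to TAIR10 with Bowtie, removed duplicates with SAMtools and called peaks per replicate with MACS2 (2.1.1). They deposited 16 summit lists, 8 of H2A.Z over H3 and 8 between genotypes, with the −log10 of the q value as each summit's deposited score. The lists hold no counts, so depth is unknown. Positions were placed in the TAIR10.1 annotation (37899 genes, 27444 protein coding), and 0 summits lay outside its chromosome lengths. The members and all gene lists were chosen with earlier results of these data known.

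Sites were joined within 200 bp. Coding exon, intron or UTR was read from the transcript with the longest coding sequence. A site has a mutant or loss summit when one lies within 200 bp, and its score is then the best of them. Shares of comparison sets were weighted to the 5 score quintiles of the 3′ sites. The mean of 6 within-library differences was tested with an exact sign-flip permutation test, with Benjamini-Hochberg adjustment over 2 differences. The procedure was tested on simulated sites with a known difference and with none. Separate plates are the replicates, and no more is known of their independence. Sites were named by rule: the 5 highest by lower WT score, the 5 with summits in most mutant lists, the 5 highest losses in both WT over *mbd9-3* lists, the 3 highest in both *arp6-1* over *arp6-1 mbd9-3* lists, the 3 highest alone in their gene, and the highest of each host group. A site that this rule names is not reported here. Alternatives were joining distances, TES windows, gene lengths, score limits, exclusions, single WT replicates and left-out mutant libraries. Python 3.11.15, NumPy 2.4.6, SciPy 1.17.1 and matplotlib 3.10.9 were used.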

Additional observations from a re-analysis of the deposited data

Results flagged for a closer look

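The difference between 3′ and 5′ sites at matched wild-type score went in opposite directions in 2 mutants. It averaged −4.67 ± 0.297 points (SD, n = 2) in *mbd9-3*, below 0 in both libraries, and 1.51 ± 0.290 points (SD, n = 2) in *arp6-1 mbd9-3*, above 0 in both. In *arp6-1 mbd9-3* the 3′ sites were above 5′ sites in the 4 lower score quintiles of both libraries, with 5 to 14 such sites having a summit in each, and below them in the highest quintile (6.70% and 5.03%, against 8.14% and 7.64%). This difference between the mutants was not tested. The SDs are between libraries read at the same sites and leave out the counting error over sites. The *arp6-1 mbd9-3* lists hold 1243 and 1265 summits, against 15024 and 17839 in *mbd9-3*, and the part of list length in it was not tested.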

How the results depend on the processing

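Of 22 alternatives, all kept the difference from gene-body sites below 0 (−7.13 to −2.03 points, adjusted p 0.0625 to 0.625) and 20 kept that from 5′ sites below 0 (−6.08 to 0.32 points, adjusted p 0.125 to 1). Neither was past the threshold under any of them, which says nothing of stability, since 1 difference alone cannot go below an adjusted p of 0.0625. The difference from 5′ sites turned to 0.32 points with the last 700 bp and to 0.25 points with mutant summits within 500 bp, where that from gene-body sites was −7.13 points (exact sign-flip permutation test, p = 0.031, adjusted p = 0.0625). The cause was not tested. Without 1 replicate, WT or mutant, these differences ran from −2.12 to −0.051 points for 5′ sites and from −5.37 to −2.76 points for gene-body sites. Without a mutant library 5 libraries are left, and the test cannot pass the threshold. The −2.12 points came without WT replicate 1, where all 6 mutant libraries stay. No paired analysis was possible because genotypes were compared by no test, and the differences that were tested are already paired within each library.

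The number of 3′ sites was 363 with the last 300 bp, 2352 with the last 700 bp, 855 in genes of 2000 bp or more, and 604 and 103 with scores of at least 5 and 10 in both WT replicates. With a single WT replicate it was 1824 and 2040. These numbers follow from the narrower or wider rule itself. The share with a summit in *mbd9-3* was 39.5% with the last 300 bp, 62.0% and 87.9% with WT scores of at least 5 and 10, 36.9% and 51.5% with mutant summits within 100 and 500 bp, and 26.1% with mutant scores of at least 5. Without 1 replicate it was 34.6 to 48.3%. In *arp6-1* the share was 26.6% and 52.9% with WT scores of at least 5 and 10, 7.47% with mutant scores of at least 5, and 9.13 to 23.9% without 1 replicate, *arp6-1* replicate 2 giving the upper and replicate 1 the lower value.

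In *arp6-1 mbd9-3* it was 3.89% and 3.28% when WT summits were joined within 100 and 500 bp, 2.07% and 4.59% with the last 300 and 700 bp, 3.33% and 4.28% in genes of at least 2000 and 1000 bp, and 5.38% and 9.71% with WT scores of at least 5 and 10. It was 2.98% and 4.09% with mutant summits within 100 and 500 bp, 0.773% with mutant scores of at least 5, and 2.77 to 3.76% without 1 replicate.

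The share with a loss summit against *mbd9-3* was 20.1% with the last 300 bp, 27.9% and 30.6% with WT scores of at least 5 and 10, 11.5% with loss scores of at least 5, and 19.3 to 25.3% without 1 replicate. Against *arp6-1* it was 74.6% and 86.4% with those WT scores, 34.5% with loss scores of at least 5, and 50.3 to 68.1% without 1 replicate. Against *arp6-1 mbd9-3* it was 63.6% when WT summits were joined within 500 bp, 85.3% and 98.5% with those WT scores, 62.5% and 71.8% with loss summits within 100 and 500 bp, 44.5% with loss scores of at least 5, and 54.6 to 70.3% without 1 replicate. With sites of WT replicate 1 and losses of replicate 2, an alternative chosen after seeing the data, the shares were 16.8% against *mbd9-3*, 42.0% against *arp6-1* and 49.7% against the double mutant. With the replicates exchanged they were 20.4%, 56.5% and 56.4%. The number of mutant lists with a summit at a named site stayed as given in 50 of 58 combinations of site and distance.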
